A study of Danio rerio with 40 samples.

Results

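The hormone genes of the pituitary were examined in the brain and the eye of adult zebrafish with and without a knockout of cyp1b1, the gene of a cytochrome P450 enzyme that acts on steroids, retinoids and fatty acids. The 10 genes were gh1, prl, smtla, smtlb, cga, fshb, lhb, tshba, pomca and pou1f1, each matched by its symbol in the authors' deposited tables. Of these, 8 are in the brain table and 2, cga and lhb, are also in the eye table, out of 20454 genes that either table lists. The symbols tshba and smtla are in neither table, and gh1, prl, smtlb, fshb, pomca and pou1f1 are not in the eye table. Other names of these genes were not searched for. No level is given for a gene in a table that does not list it.

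Brains and eyes were dissected from wild-type (WT) fish and from a cyp1b1 knockout line named wh5, and their poly(A) RNA was sequenced. There are 40 samples in 8 groups of 5, formed by female and male WT and wh5 fish in each organ, which leaves 10 WT and 10 wh5 samples per organ. The labels give no age beyond adult, and say neither whether the WT fish were from the same crosses nor whether the pituitary was kept with the brain. All wh5 fish carry the same allele, so that line and genotype cannot be told apart.

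The pituitary lies under the hypothalamus and secretes peptide hormones into the blood. Growth hormone (gh1), prolactin (prl) and the somatolactins (smtla and smtlb, a pair known from fish) belong to one family of hormones, and the homeobox factor Pou1f1 is needed for the cells that make growth hormone, prolactin and thyrotropin. Follicle-stimulating hormone, luteinizing hormone and thyrotropin are dimers of a common alpha subunit (cga) with a beta subunit of their own (fshb, lhb and tshba). Proopiomelanocortin (pomca) is cut into adrenocorticotropin and melanocyte-stimulating hormone, and is made both in the pituitary and by neurons of the hypothalamus. In a pituitary the genes of these hormones are among the most abundant transcripts. The gene pou1f1 encodes a transcription factor and no hormone, but is counted with the hormone genes here.

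Values of single samples were not used here, and the error given is the standard error (SE) that the authors' fit assigned to each log2 fold change. It combines counting error with the spread between these samples, which may be partly technical. Each genotype holds females and males and the model formula is not known, so a difference by sex may be part of this SE. The depth of the libraries is unknown. The base mean is the mean of the normalised counts over the samples of one organ. Genes with an adjusted p under 0.05 in the deposited tables are referred to as called. Title and source field name different organs in every sample, and organs were taken from the titles. The authors' deposited base mean of rhodopsin (rho) was 632710 for eye against 1359 for brain. For the targeted transcript, cyp1b1, the estimate on the log2 scale was -0.17 (SE 0.14, adjusted p = 0.818) in the authors' deposited brain table and 0.54 (SE 0.14, adjusted p = 0.016) in their eye table, so its level does not check the genotype labels.

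The pituitary hormone genes had few counts in brain. Per the authors' deposited brain table, 7 of the 8 listed genes had a base mean under 15, a level that 10.8% of all 19300 listed genes share, while the median gene had a base mean of 309. The 7 base means ran from 2.91 for pou1f1 to 13.1 for prl. Added up over the 20 brain samples, that is 96.9 normalised counts for gh1, 261 for prl, 245 for smtlb, 159 for cga, 170.1 for fshb, 113 for lhb and 58.1 for pou1f1. The gene pomca had a base mean of 158, or 3168 normalised counts in all. Lengths of transcripts were not used here, so base means of different genes are given as the depth behind each value and not compared as levels.

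Other genes that mark the pituitary were partly listed. Of 19 pituitary transcription factors, 16 are in the brain table, with a median base mean of 103. Among those not in it are pitx1 and lhx3, homeobox genes of the pituitary primordium. Among the 16, the corticotrope factor gene tbx19 had a base mean of 9.98, and nr5a1a, a homologue of the mammalian gonadotrope factor, 9.78 in the authors' deposited brain table. All 10 hypothalamus marker genes are in the brain table, and 5 of the 10 are in the eye table. In such bulk samples, fewer pituitary cells and less hormone RNA per cell cannot be told apart.

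None of the 8 hormone genes in brain and neither of the 2 in eye was called by the authors' DESeq2 fit. The share of all genes called was 0.736% in brain and 1.67% in eye. At an unadjusted p below 0.05, gh1 passed in brain and lhb in eye, where the share of all genes passing was 8.62% and 14.2%, respectively. In brain, 5 of the 8 had a positive and 3 a negative log2 fold change, with a median of 0.16 against 0.00 over all genes. In eye both estimates were positive, with a median of 0.55 against 0.01 over all genes. The share of all genes with a positive log2 fold change was 49.5% in brain and 51.9% in eye.

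**Figure D1:**
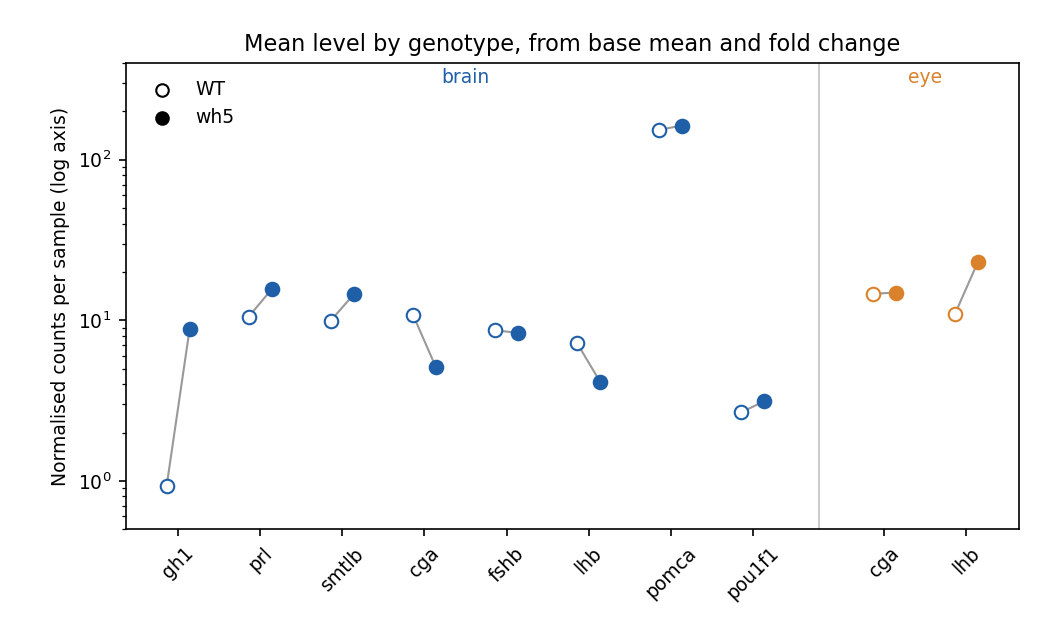
Mean normalised counts per sample in WT (open circles) and wh5 (filled circles) for each listed hormone gene, on a log axis, in brain (blue) and eye (orange). The means were worked out from the deposited base mean and fold change, taken as the ratio of the genotype means, and carry no error bar. Different genes are not comparable without their lengths. In brain, gh1 has the widest gap, from 0.924 in WT to 8.77 in wh5, and pomca lies close together at 154 in WT and 163 in wh5.

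Among the hormones of the growth hormone family, gh1 had the largest estimate and the widest interval. The base mean and fold change together give a mean of 0.924 normalised counts in WT brain and 8.77 in wh5 brain. These means of gh1 hold if all 20 samples entered the comparison and the fitted fold is the ratio of the genotype means. By the authors' deposited brain table its log2 fold change was 3.25 (SE 1.56, adjusted p = 0.532). The 95% interval of the fold ran from 1.13 to 79.5, so that an effect near none and a very large one are both within it. At that SE, a log2 fold change of 5.58 would have been needed for a call. Because values of single samples were not used here, it cannot be said how many wh5 fish carried the counts of gh1.

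Prolactin and somatolactin beta had smaller estimates with intervals on both sides of no change. The gene prl had implied means of 10.5 in WT and 15.6 in wh5, and a log2 fold change equal to 0.57 (SE 0.44, adjusted p = 0.801) in the authors' deposited brain table. The interval of its fold ran from 0.809 to 2.71. The gene smtlb, whose hormone is a fish relative of prolactin and growth hormone, had means of 9.95 and 14.5 and a log2 fold change equal to 0.55 (SE 0.72, adjusted p = 0.91) in the authors' deposited brain table, with a fold between 0.547 and 3.898. For pou1f1, at means of 2.68 and 3.14, the authors' deposited brain table has 0.23 (SE 0.76, adjusted p = 0.968), a fold between 0.419 and 3.28. A change of the size estimated for gh1 lies outside the intervals of prl, smtlb and pou1f1, and no change lies inside them. The interval of gh1 itself, a fold of 1.13 to 79.5, overlaps each of these, so the values do not set gh1 apart.

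The gonadotropin subunit genes cga and lhb had negative estimates in brain, and fshb was close to 0. Implied means of cga, the subunit that all 3 glycoprotein hormones share, were 10.8 in WT and 5.09 in wh5. The authors' deposited brain table has a log2 fold change equal to -1.09 (SE 0.63, adjusted p = 0.658) for cga, and the interval of the fold ran from 0.201 to 1.098. The gene lhb, which encodes the beta subunit of the hormone that triggers ovulation, had means of 7.18 and 4.14 and a log2 fold change equal to -0.80 (SE 0.63, adjusted p = 0.801) in the authors' deposited brain table. The fold of lhb lies between 0.246 and 1.347. For fshb, the beta subunit of the hormone that drives growth of follicles, the means were 8.65 and 8.36. Its log2 fold change in the authors' deposited brain table was -0.05 (SE 0.44, adjusted p = 0.989), with a fold between 0.531 and 1.755. The deposited tables do not separate females from males, so these genes were not compared by sex.

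The precursor gene pomca had the narrowest interval of the 8. Its implied means were 154 in WT and 163 in wh5, a log2 fold change equal to 0.09 (SE 0.34, adjusted p = 0.975) in the authors' deposited brain table. The fold lies between 0.6697 and 1.69, so a 2-fold change in either direction is outside the 95% interval. A call would have needed a fold of 2.32 for pomca, 2.96 for fshb and 2.996 for prl. It would have needed 4.68 for cga, 4.69 for lhb, 5.96 for smtlb, 6.49 for pou1f1 and 47.7 for gh1.

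**Figure D2:**
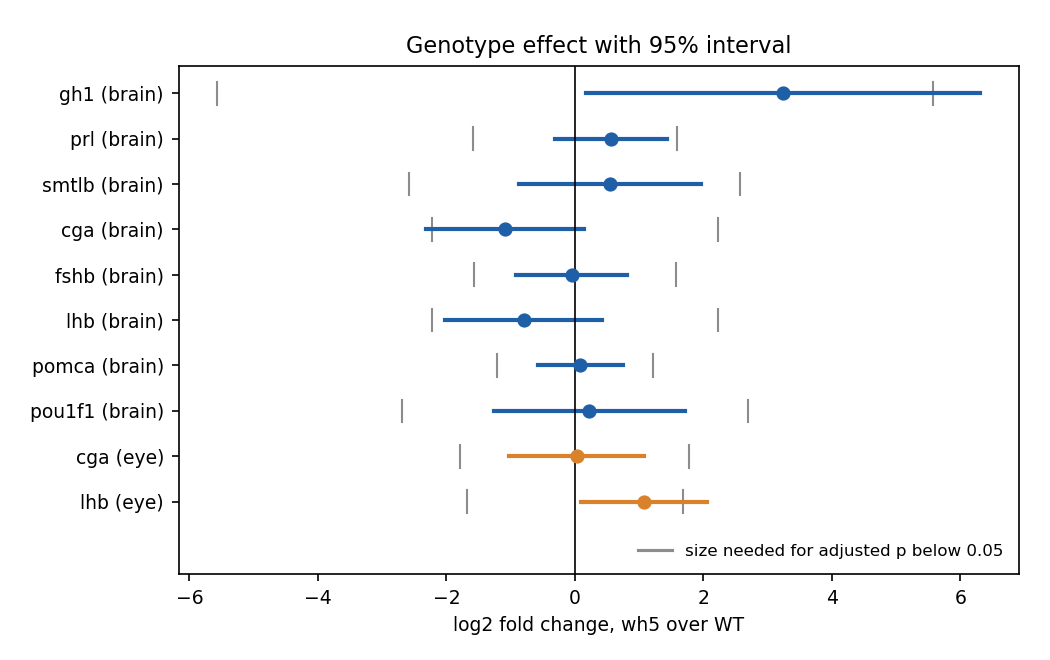
Log2 fold change of wh5 over WT for each listed hormone gene in brain (blue) and eye (orange), with the 95% interval from the deposited SE as a bar. Grey ticks mark the size that would have been called at that SE. No point lies beyond its ticks, and the intervals of gh1 in brain, 0.18 to 6.31, and lhb in eye, 0.09 to 2.07, are those that do not cross 0.

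In eye, cga and lhb were listed with base means above those in brain, although the tables were normalised separately. By the authors' deposited tables, lhb had a base mean of 17.02 in eye against 5.66 in brain, and cga one of 14.7 against 7.97. The gene lhb had implied means of 10.9 in WT eye and 23.1 in wh5 eye, and a log2 fold change equal to 1.08 (SE 0.50, adjusted p = 0.289) in the authors' deposited eye table. The fold lies between 1.06 and 4.19, and 3.21 would have been needed for a call. For cga in eye the means were 14.6 and 14.9, and the authors' deposited eye table has 0.03 (SE 0.53, adjusted p = 0.991). Of the 8 listed hormone genes, lhb is the one on the chromosome that carries cyp1b1, by the RefSeq gene table of another assembly, GRCz12tu. The chromosomes of tshba and smtla were not looked up. Without that chromosome, 65 genes instead of 142 were called in brain, and 234 instead of 325 in eye. For lhb in both organs, the knockout and variants linked to it cannot be told apart.

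The estimates for lhb had opposite signs in the organs, but the 95% interval in brain, -2.02 to 0.43 on the log2 scale, held values of both signs. The difference, eye minus brain, was 1.87 on the log2 scale (SE 0.80, 95% interval 0.30 to 3.45), with an adjusted p of 0.556 over the 18275 genes in both tables. For cga the difference was 1.12 (SE 0.82, adjusted p = 0.751). Neither was called, where 0.0821% of all genes were. At an unadjusted p below 0.05, lhb passed and cga did not, where 8.19% of all genes passed. The test takes the estimates of the organs as independent. A correlation of 0.5 between them could arise if brain and eye came from the same fish. With it, lhb would have an adjusted p of 0.0364 and be among 727 called of all genes in both tables. An empirical null, which divides the test statistic by its robust spread over all genes, moved lhb the other way. Its adjusted p was then 0.986, and 1 of all genes was called.

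To describe the spread of the hormone genes in brain, their SEs were set beside those of genes with a base mean within 2-fold. An SE also depends on how the counts divide between the genotypes. For gh1, with an implied WT mean of 0.924, counting error alone over 10 samples a genotype would give an SE of 0.499. The SE of gh1 was 2.46 times the median SE of 1337 such genes and above that of 99.7% of them. The SE of pomca was 2.36 times the median of 4291 such genes, above 95.8% of them, and that of smtlb was 1.65 times. The genes prl, lhb, pou1f1 and cga were between 1.01 and 1.18 times their median, and fshb was at 0.847. In eye, cga and lhb were both at 1.36 times. Counting error alone, over 10 samples a genotype at these means, would give pomca an SE of 0.0513, and the deposited SE was 6.63 times that. For the other 7 genes in brain the deposited SE was 1.99 to 3.85 times that of counting error. The fit adds spread between samples to counting error, so an SE above counting error was given in advance. Genes with a base mean like that of pomca had a median SE of 0.144, also above its counting error.

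**Figure D3:**
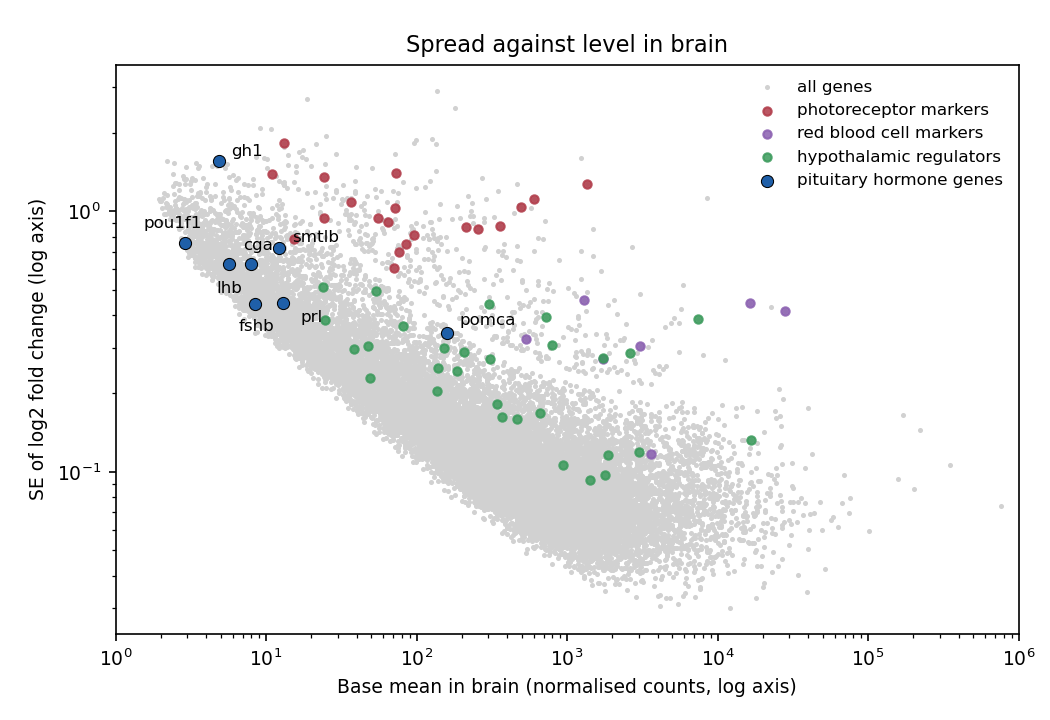
SE of the log2 fold change against base mean for every gene of the brain table (grey), both on log axes, with the 8 listed hormone genes (blue, named), photoreceptor markers, red blood cell markers and hypothalamic regulators in colour. All hormone genes except pomca lie at the left edge with base means under 15, and gh1 and pomca lie above most genes of like base mean.

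Genes with a large spread in brain for their level included several cell-type markers. By this ratio pomca ranked 377 among 13122 named genes that reached a base mean of 50. The first 12 were scg5, sc:d217, rho, serpina10a, gnat1, arr3a, msh4, rbp4l, myrfl, gngt2b, mhc2b and foxg1a, with ratios from 19.7 for scg5 down to 8.59 for foxg1a. Among them are rho, the rod transducin gene gnat1 and the cone arrestin gene arr3a from the photoreceptor list, and rbp4l and gngt2b, which photoreceptors of fish also express. The gene scg5, at the top, encodes the chaperone of the prohormone convertase that matures peptide hormones. Its log2 fold change in the authors' deposited brain table was 1.39 (SE 1.60). The spread of scg5 was not particular to brain: its ratio in eye was 9.84. By the same rule in eye, 4 genes were in the first 12 of both organs: scg5, sc:d217, mhc2b and serpina10a. The 29 hypothalamic regulators had a median ratio of 1.67. Those with high ratios included oxt at 5.09 (isotocin, the fish form of oxytocin), pmchl at 4.35 and pmch at 3.902 (melanin-concentrating hormone) and npy at 3.80 (neuropeptide Y), while trh was at 1.17 and kiss2 at 0.968. Red blood cell markers had a median ratio of 4.08 over 7 genes.

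Of 20 photoreceptor markers measured in the same brain samples, 5 were called, all lower in wh5, against 0.736% of all genes. At an unadjusted p below 0.05, 15 of the 20 passed, all lower, against 8.62% of all genes. Those called were the arrestin gene arr3b, the opsin kinase gene grk7a, guca1d, the opsin gene opn1sw2 and the cone transducin gene gnat2. The median log2 fold change of the 20 was -2.66 against 0.00 over all genes, with 20 of 20 estimates negative and a median SE ratio of 4.30. These genes mark the same class of cells and were measured in the same samples, so their estimates are not independent observations. The called genes ran from -3.01 for arr3b (SE 0.75, adjusted p = 0.0137) to -3.85 for opn1sw2 (SE 1.03, adjusted p = 0.0301) in the authors' deposited brain table. In eye none of 21 was called, against 1.67% of all genes. At an unadjusted p below 0.05, 2 passed in eye as higher and 1 as lower, against 14.2% of all genes. There pde6c was at -0.25 (SE 0.10), rho at 0.28 (SE 0.12) and arr3a at 0.15 (SE 0.11) in the authors' deposited eye table. The part of other tissue in the values of the hormone genes was not tested. The 8 pineal markers had a median of -0.11 in brain, with exorh at 0.40 (SE 0.20), aanat2 at -0.53 (SE 0.37), tph2 at -0.05 (SE 0.25) and asmt2 at 0.09 (SE 0.11). In eye the 7 measured had a median of -0.05, with tph2 at -0.91 (SE 0.31, adjusted p = 0.0947), aanat2 at 0.31 (SE 0.16) and otx5 at 0.02 (SE 0.10). The 7 red blood cell markers had medians of 0.01 in brain and -0.09 in eye. In brain, hbba2 had -0.52 (SE 0.31), hbaa2 -0.68 (SE 0.46), hbba1 0.27 (SE 0.42) and hbaa1 0.13 (SE 0.45). In eye they had -0.34 (SE 0.21), -0.49 (SE 0.35), 0.27 (SE 0.34) and 0.15 (SE 0.22) in that order, all from the authors' deposited tables. None of these pineal and red blood cell genes was called.

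The regulators of the pituitary and the targets of its hormones were then described by role. Leaving out the 10 hormone genes and the photoreceptor, pineal and red blood cell markers, 143 genes were measured in brain and 123 in eye. These include related hormone genes, 2 in brain and 3 in eye, and the hypothalamus markers. None was called in either organ, against 0.736% of all genes in brain and 1.67% in eye. At an unadjusted p below 0.05 there were 8 in brain (5.59%) and 15 in eye (12.2%), against 8.62% and 14.2% of all genes.

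**Figure D4:**
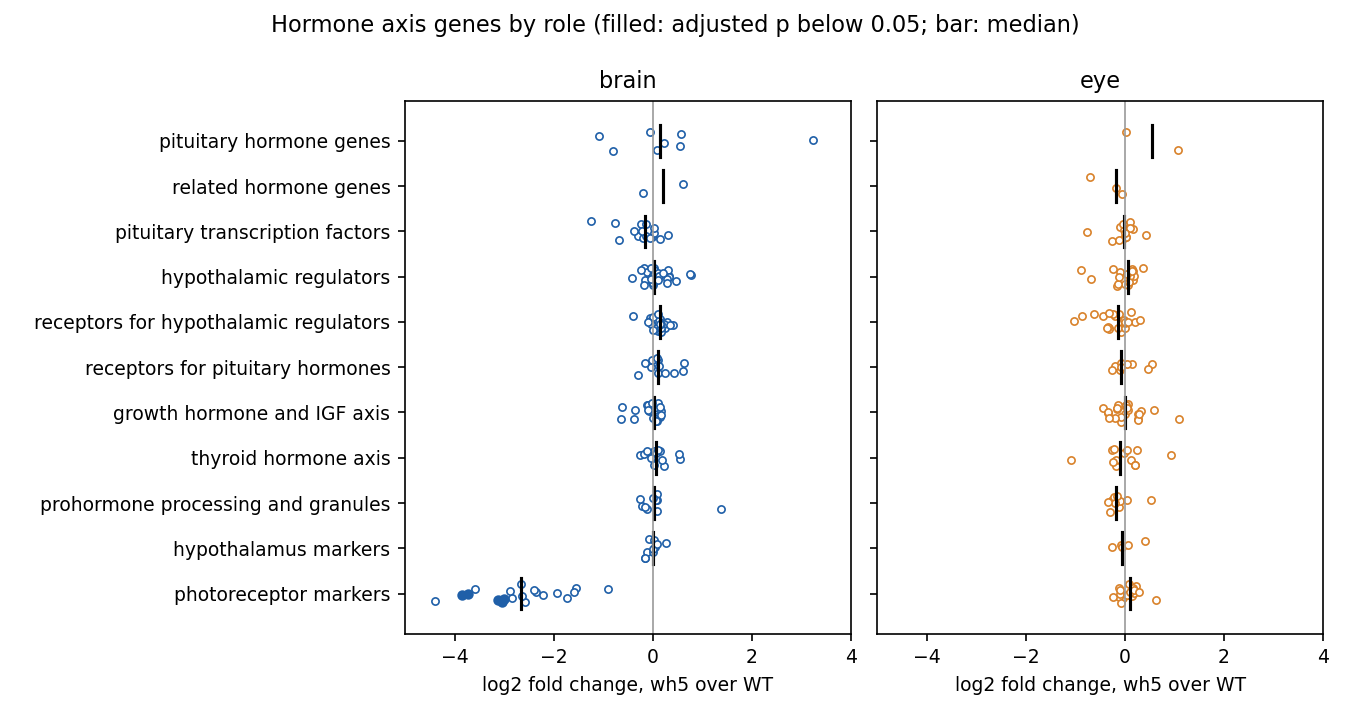
Log2 fold change of wh5 over WT for each measured gene (circles, spread vertically at random) by role, in brain (left, blue) and eye (right, orange), with the list median as a black bar. Filled circles, which occur for 5 photoreceptor markers in brain, have an adjusted p below 0.05; the hormone genes and their regulators are all open.

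Of 5 related hormone genes, 2 were measured in brain and 3 in eye, and none was called. The second proopiomelanocortin gene, pomcb, had a base mean of 80.5 and a log2 fold change equal to 0.61 (SE 0.23, adjusted p = 0.265) in the authors' deposited brain table. The second prolactin gene, prl2, had -0.20 (SE 0.22) in brain and -0.05 (SE 0.26) in eye, at base means of 100.05 and 179.96 in the authors' deposited tables. The subunit genes of thyrostimulin, gpha2 and gphb5, are listed for eye but not for brain. By the values of the authors' deposited eye table gphb5 had a log2 fold change equal to -0.70 (SE 0.30, adjusted p = 0.232) with a base mean of 199, and gpha2 had -0.18 (SE 0.35). No source used here says how reads shared by such paralogues were counted.

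Transcription factors of the pituitary lineage had a median of -0.16 on the log2 scale over 16 genes in brain and -0.01 over 14 in eye. The homeobox gene six1b had -1.24 (SE 0.48, adjusted p = 0.317) and the bHLH gene neurod4 had -0.75 (SE 0.35, adjusted p = 0.51) in the authors' deposited brain table. The most counted, sox3, had -0.13 (SE 0.11) there. In eye the largest statistics were those of pitx1, at -0.25 (SE 0.13), and sox3, at 0.43 (SE 0.25), and the most counted were six3b, at -0.00 (SE 0.09), and neurod4, at 0.10 (SE 0.07), all from the authors' deposited table. Many of these factors also act outside the pituitary, in retina and forebrain.

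Genes listed as hypothalamic regulators of pituitary hormones had medians near 0, at 0.03 over 29 genes in brain and 0.06 over 19 in eye. The bulk values do not show which cells these transcripts came from, in either organ. The thyrotropin-releasing hormone gene trh had 0.29 (SE 0.09, adjusted p = 0.131) and the kisspeptin gene kiss2, a regulator of reproduction, had 0.48 (SE 0.23, adjusted p = 0.53) in the authors' deposited brain table. The most counted were adcyap1b (the peptide PACAP), at 0.03 (SE 0.13), and oxt, at 0.75 (SE 0.39, adjusted p = 0.58), in the same deposited table of the authors. In eye, the dopamine synthesis gene th had -0.23 (SE 0.14) and the corticotropin-releasing hormone gene crhb 0.16 (SE 0.11), and the most counted were crhbp, at 0.01 (SE 0.14), and the cortistatin gene cort, at 0.10 (SE 0.16), in the authors' deposited eye table.

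Receptors for these regulators had a median of 0.15 over 27 genes in brain, with 20 higher and 7 lower. In eye the median was -0.14 over 24 genes, with 5 higher and 19 lower. Over all genes, 49.5% were higher in wh5 in brain and 51.9% in eye. Genes measured in the same samples are not independent, so these counts only describe the list. None of the receptor genes was called. At an unadjusted p below 0.05, 1 passed in brain (higher) and 6 in eye (all lower), against 8.62% and 14.2% of all genes. Within the authors' deposited brain table the neurokinin receptor gene tacr3l had 0.42 (SE 0.15, adjusted p = 0.252) and the kisspeptin receptor gene kiss1ra 0.22 (SE 0.13). The PACAP receptor genes adcyap1r1a and adcyap1r1b, the most counted in brain, had 0.10 (SE 0.17) and -0.06 (SE 0.10) there. Per the authors' deposited eye table tacr3a, another neurokinin receptor gene, had -1.04 (SE 0.35, adjusted p = 0.0941) with a base mean of 14.01. There adcyap1r1a had -0.62 (SE 0.23, adjusted p = 0.142), adcyap1r1b -0.33 (SE 0.14) and the growth hormone-releasing hormone receptor gene ghrhra -0.14 (SE 0.11), by the same table.

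Receptors for the pituitary hormones had medians of 0.11 over 12 genes in brain and -0.08 over 10 in eye. The receptor genes prlrb, mc2r (adrenocorticotropin) and fshr, and the melanocortin receptor accessory gene mrap, are in neither table. The melanocortin receptor gene mc3r had 0.62 (SE 0.32) and the thyrotropin receptor gene tshr 0.63 (SE 0.36) in the authors' deposited brain table, at base means of 20.5 and 18.3. The most counted there were the melanocortin receptor gene mc5ra, at -0.02 (SE 0.10), and the prolactin receptor gene prlra, at 0.12 (SE 0.18). By the authors' deposited eye table prlra had a base mean of 4413 and a log2 fold change equal to -0.27 (SE 0.11, adjusted p = 0.222). The luteinizing hormone receptor gene lhcgr had 0.55 (SE 0.31) and the growth hormone receptor gene ghrb 0.15 (SE 0.20) in that deposited table of the authors.

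Targets of growth hormone and members of the insulin-like growth factor pathway had medians of 0.02 in brain and 0.00 in eye, over 24 genes each. The growth hormone signal transducer gene stat5a had 0.17 (SE 0.09) and the binding protein gene igfbp2b 0.16 (SE 0.09) in the authors' deposited brain table, with jak2a at 0.11 (SE 0.11) and igfbp2a at -0.07 (SE 0.12) as the most counted. By the values of the authors' deposited eye table the receptor gene igf1rb had -0.45 (SE 0.18, adjusted p = 0.177), the binding protein gene igfbp5b -0.34 (SE 0.14, adjusted p = 0.197) and the cytokine signalling inhibitor gene socs3a -0.32 (SE 0.59). Genes of the thyroid hormone axis had medians of 0.08 over 13 genes in brain and -0.10 over 14 in eye. The thyroxine transporter gene slco1c1 had 0.23 (SE 0.12) in brain and 0.20 (SE 0.07, adjusted p = 0.134) in eye, in the authors' deposited tables. In brain the deiodinase genes dio3b and dio2 had 0.15 (SE 0.10) and -0.25 (SE 0.46), and the receptor gene thrb 0.03 (SE 0.12), by the authors' deposited table. In eye the thyroid hormone receptor genes thrb and thrab had -0.23 (SE 0.16) and -0.19 (SE 0.11), by their deposited eye table.

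Genes that process and pack prohormones were well detected in both organs, with median base means of 8235 in brain and 3239 in eye. Their median log2 fold change was 0.04 in brain and -0.18 in eye, over 10 genes each. Within the authors' deposited brain table the granin gene chga had -0.22 (SE 0.08, adjusted p = 0.2996) and scg3 -0.26 (SE 0.13), and the carboxypeptidase gene cpe and the granin gene scg2b, the most counted, had 0.10 (SE 0.06) and 0.00 (SE 0.09). Per the authors' deposited eye table scg2a had -0.35 (SE 0.13, adjusted p = 0.138), scg2b -0.16 (SE 0.06, adjusted p = 0.153), cpe -0.11 (SE 0.07) and scg3 0.03 (SE 0.09). Of the hypothalamus markers in brain, otpb had 0.28 (SE 0.18), lhx9 -0.11 (SE 0.09) and otpa 0.02 (SE 0.11) by the authors' deposited table, and the list had a median of 0.02 with none called. Of those in eye, dlx5a had 0.41 (SE 0.22), otpa -0.26 (SE 0.27), lhx9 -0.08 (SE 0.09) and rx3 -0.06 (SE 0.13) by the authors' deposited eye table, and the list's median there was -0.06.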

How the data were processed

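Brain and eye RNA of 40 adult zebrafish samples was compared by genotype, with organ, genotype and sex taken from the sample titles. Tools named in the submitters' processing notes are DESeq2 1.32.0, STAR and fastp, on build GRCz11, without parameters. The authors deposited 1 table per organ with, per the file headers, a log2 fold change and its SE in log2 units, a base mean (a signal, the mean of normalised counts), a test statistic (a score) and p-values, raw and adjusted. Base 2 of the logarithm was taken from the output format of the tool the authors named. No source used here gives the model formula or covariates. The table names set the direction, taken here as wh5 relative to WT. Nothing was refitted.

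The adjusted p was checked against the Benjamini-Hochberg value over all listed genes, from which it differed by at most 0.00455 (brain) and 0.00449 (eye) of its size. Intervals are the estimate plus or minus 1.96 SE at the 95% level. Mean counts per genotype were worked out from the base mean and fold change, assuming 10 samples a genotype. The fitted fold was taken as the ratio of the genotype means, which need not hold if the model had covariates. Organs were compared by dividing the difference of their fold changes by its SE, the root of both squared SEs added (two-sided normal p, Benjamini-Hochberg adjusted). The code was run on simulated effects, drawn independently for each organ with the deposited SEs. Such data check neither the independence of the organs nor the size of the SEs. Lists hold 202 symbols in 12 lists. They were matched by symbol or through RefSeq names, and 15 are in neither table. All 10 hormone genes are named. Of each other list, up to 6 called genes are named or, with none called, the 2 with the largest statistic and the 2 with the highest base mean, as are the 12 genes of base mean 50 or more with the largest SE for their level in brain. Some genes that this rule selects are not reported here. Further genes (tbx19, nr5a1a, pmch, pmchl and npy) were named after their values were seen. Members and lists were chosen with earlier results of these data known. No sequence is shown, since none was used here. Computations used scipy 1.17.1, numpy 2.4.6 and pandas 2.3.3 under Python 3.11.15, and plots matplotlib 3.10.9.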

Additional observations from a re-analysis of the deposited data

How the results depend on the processing

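The count of called hormone genes stayed at 0 of those listed in brain and in eye with genes of a base mean of at least 10 only (3 hormone genes tested in brain and 2 in eye), with an empirical null, with a threshold of 0.1 and without the chromosome of cyp1b1, which removes lhb. Under the alternatives other than the threshold of 0.1, adjusted p-values of the hormone genes ran from 0.586 to 0.998 in brain and from 0.286 to 0.9998 in eye. The lowest deposited values were 0.532 for gh1 in brain and 0.289 for lhb in eye. Over all genes the number called in brain was 142. Under the alternatives in turn, the threshold of 0.1 included, it was 149, 75, 205 and 65. In eye it was 325, and 321, 38, 642 and 234.

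The count of hormone genes whose effect differed between organs was 0, and 1 (lhb) with a correlation of 0.5 between organs, where 727 genes were called against 15. With an empirical null it was 0, and with a base mean of at least 10 in both tables neither gene was tested. The median SE ratio of the hormone genes in brain was 1.11, and 1.13 with a narrower window of base mean and 1.17 without the chromosome of cyp1b1.

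No paired analysis was possible because the tables hold no values of single samples. Leaving out each replicate was not run for the same reason. The SEs limit the brain values: a call needed a fold of at least 2.96 for the 7 genes with a base mean under 15, and 47.7 for gh1.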
